A study of Mus musculus with 3 samples.

Results

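The genes examined here encode immune checkpoint ligands and enzymes that tumour cells can use to restrain immune cells, namely *Cd274*, *Pdcd1lg2*, *Cd80*, *Cd276*, *Vtcn1*, *Cd47*, *Pvr*, *Nt5e*, *Entpd1* and *Ido1*. They were chosen by symbol, through the RefSeq accession that the array design gives for each probe, and are 10 of the 22911 genes that could be named on the array. Together they were read by 14 probes, with several probes for 3 genes and 1 probe for each of the other 7. Their RNA was compared among Colon26, a murine colon adenocarcinoma cell line of female BALB/c origin, its high-metastatic subline LuM1 and its low-metastatic subline NM11. No treatment was named for any line, and all grew in RPMI1640 with 10% FBS, antibiotics and an antifungal agent and were harvested after 3 days of culture. Each line was measured on 1 single-colour array, so no difference had a replicate check, no test was run, and "higher" and "lower" below describe these 3 RNA samples. The sublines are derived cell populations measured in culture, and having so few arrays limits how precise any value can be.

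Checkpoint ligands sit on the surface of tumour or antigen-presenting cells and bind receptors on lymphocytes or phagocytes. The products of *Cd274* (PD-L1) and *Pdcd1lg2* (PD-L2) bind the inhibitory receptor PD-1 on T cells, that of *Cd80* binds the stimulatory receptor CD28 and the inhibitory receptor CTLA-4, and that of *Cd47* binds SIRPα on macrophages and inhibits phagocytosis. Ectonucleotidases act on nucleotides outside the cell. The enzyme encoded by *Entpd1* (CD39) converts extracellular ATP to AMP and the enzyme encoded by *Nt5e* (CD73) converts AMP to adenosine, which dampens T cell responses, while *Ido1* encodes an enzyme that degrades tryptophan to kynurenine. In many tumours interferon-gamma induces *Cd274* and *Ido1* through JAK kinases and the transcription factor IRF1.

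The start regions of 4 of the genes are shown because *Cd274* and *Pdcd1lg2* are neighbours on chromosome 19 with different detection on the arrays, while *Cd47* and *Nt5e* were both highest in LuM1 cells but differed in which line was lowest. Each is the RefSeq window of 300 bases on the plus strand of GRCm38.p6, from 250 bases before to 50 after the annotated start, and belongs to the reference mouse, not to the BALB/c cells. Capitals mark a match to one of the motifs searched on both strands, which were the interferon-gamma activated site TTCNNNGAA, the core GAAANNGAA of the interferon-stimulated response element, the core ACGTG of the hypoxia response element and the E-box CACGTG, which contains that core. The windows lie at chr19:29367188-29367487 for *Cd274*, chr19:29410669-29410968 for *Pdcd1lg2*, chr16:49855404-49855703 for *Cd47* and chr9:88327359-88327658 for *Nt5e*.
Cd274: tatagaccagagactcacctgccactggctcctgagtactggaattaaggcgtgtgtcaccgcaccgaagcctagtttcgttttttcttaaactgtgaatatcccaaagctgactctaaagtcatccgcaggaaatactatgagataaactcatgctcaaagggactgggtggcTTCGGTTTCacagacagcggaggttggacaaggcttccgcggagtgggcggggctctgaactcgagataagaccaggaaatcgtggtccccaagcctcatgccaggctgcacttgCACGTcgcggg
Pdcd1lg2: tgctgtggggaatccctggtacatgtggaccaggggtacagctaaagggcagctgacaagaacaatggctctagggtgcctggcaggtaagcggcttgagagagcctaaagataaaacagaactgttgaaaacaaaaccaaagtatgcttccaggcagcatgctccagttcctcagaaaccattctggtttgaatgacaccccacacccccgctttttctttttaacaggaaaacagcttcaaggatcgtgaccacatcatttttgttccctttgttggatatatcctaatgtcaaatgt
Cd47: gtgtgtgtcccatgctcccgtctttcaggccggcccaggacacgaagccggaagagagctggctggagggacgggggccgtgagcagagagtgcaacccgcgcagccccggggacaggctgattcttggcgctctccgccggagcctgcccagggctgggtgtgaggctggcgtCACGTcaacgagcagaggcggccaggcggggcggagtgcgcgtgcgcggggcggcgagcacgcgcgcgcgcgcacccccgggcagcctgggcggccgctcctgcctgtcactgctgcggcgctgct
Nt5e: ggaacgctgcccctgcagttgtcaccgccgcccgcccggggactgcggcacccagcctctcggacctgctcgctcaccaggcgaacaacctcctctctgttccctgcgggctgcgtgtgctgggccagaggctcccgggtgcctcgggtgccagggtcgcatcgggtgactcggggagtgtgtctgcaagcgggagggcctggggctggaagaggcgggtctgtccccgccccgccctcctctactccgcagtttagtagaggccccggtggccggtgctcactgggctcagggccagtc
The *Cd274* window held the interferon-stimulated core at position -76 from the start, read on the opposite strand, and the hypoxia core at position 39, also on the opposite strand. The *Cd47* window held the hypoxia core at position -76, and the windows of *Pdcd1lg2* and *Nt5e* held none of the 4 motifs. CpG pairs numbered 15 in the *Cd274* window, 3 in that of *Pdcd1lg2*, 35 in that of *Cd47* and 23 in that of *Nt5e*. Among all 32851 windows of this length, 8.56% held the interferon-stimulated core, 19.6% the hypoxia core, 8.30% the interferon-gamma activated site and 7.15% the E-box. Of the 8 genes with a window in the table, which lacks *Ido1* and *Pvr*, 1 held the interferon-stimulated core, 2 held the hypoxia core and none held either of the other motifs. A match in such a window describes its letters and is not evidence of a binding site.

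By the scanner software's flag, the share of probes well above background was 49.9% in Colon26, 53.8% in LuM1 and 52.5% in NM11 cells. No spot was saturated. Signals below are the scanner software's processed signal, scaled so that the 75th percentile of each array was 585.1. They are in arbitrary units that compare lines for 1 probe and not genes with each other, and each error is the software's own estimate for that spot. The processed signal is not equal to background-subtracted brightness. Before scaling it was 3.71 against -3.33 for *Entpd1* probe A_51_P504337 in NM11 cells, and 508 against 440 for *Nt5e* in LuM1 cells. Repeated probes varied within an array by a median SD of 0.035 to 0.040 (log2). As to cell identity, 5, 6 and 5 of 12 colon epithelium markers were well above background in Colon26, LuM1 and NM11 cells, and 6, among them *Cdh1*, *Krt18*, *Krt19* and *Vil1*, were so on no array. *Epcam* was so on the LuM1 array alone. The median log2 ratio of the markers measured in both lines of a pair was -0.94 for LuM1 and -1.41 for NM11 over Colon26. *Krt20* gave 651 in Colon26, 54.5 in LuM1 and 157 in NM11 cells, *Lgals4* gave 198, 71.7 and 68.2, and *Krt8*, in the other direction, gave 28.9, 108 and 37.1.

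Markers of other cell types also differed between the lines. Of 8 fibroblast markers, 5, 7 and 7 were well above background in Colon26, LuM1 and NM11 cells, with summed signals of 66337, 55465 and 121227. Such a sum mainly follows the brightest probes, here that of *Col1a2* in Colon26 and NM11 cells, and is no measure of the markers as a set. *Dcn* and *Thy1*, below that level in Colon26 cells, gave 27503 and 19560 in LuM1 cells, at least 1041-fold and at least 741-fold higher, and 9599 and 15416 in NM11 cells. *Pdgfra* gave 218, 3965 and 1286 and *Col3a1* gave 294, 1170 and 2655, whereas *Col1a2* gave 59896, 49.6 and 85275, being 1207-fold lower in LuM1 than in the parental cells. *Pdgfrb* was level at 993, 966 and 947. The gaps of *Dcn*, *Thy1* and *Col1a2* between LuM1 and Colon26 exceed the values given below for *Nt5e*, *Cd47* and *Ido1*. Of 8 endothelial markers, 2 were well above background on each array, *Cd34* and *Pecam1*, and neither differed by 2-fold. Of the 16 leukocyte markers with a probe, 6, 7 and 6 were well above background, with summed signals of 7784, 17668 and 6878. Those sums too mainly follow the brightest probes, such as that of *Itgam*. On no array were *Ptprc*, the common leukocyte antigen, and the macrophage and dendritic cell markers *Adgre1* and *Itgax* well above background. *Cd68*, with signals of 172, 5251 and 299 in Colon26, LuM1 and NM11 cells, *Cd14*, with 1153, 4175 and 988, and *Lyz2*, well above background in LuM1 cells alone at 112, were highest in LuM1 cells. *Csf1r* was level at 682, 691 and 675, and *Itgam* gave 5027, 6818 and 4251. Markers named here that were under 2-fold apart between LuM1 and Colon26, or below background in both, were named after their values were seen. The part of all these markers in the results was not tested. In RNA of whole cultures, fewer cells that express a gene and less RNA per cell cannot be told apart.

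Signal well above background was found for 6 of the 10 genes in Colon26, 8 in LuM1 and 7 in NM11 cells, while of all named genes 56.9%, 59.9% and 59.1% had it. *Cd274*, *Cd80*, *Cd276*, *Cd47*, *Pvr* and *Nt5e* were measured on all 3 arrays. *Ido1* was measured in LuM1 and NM11 cells and *Entpd1* in LuM1 cells alone, and *Pdcd1lg2* and *Vtcn1* in no line.

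**Figure D1:**
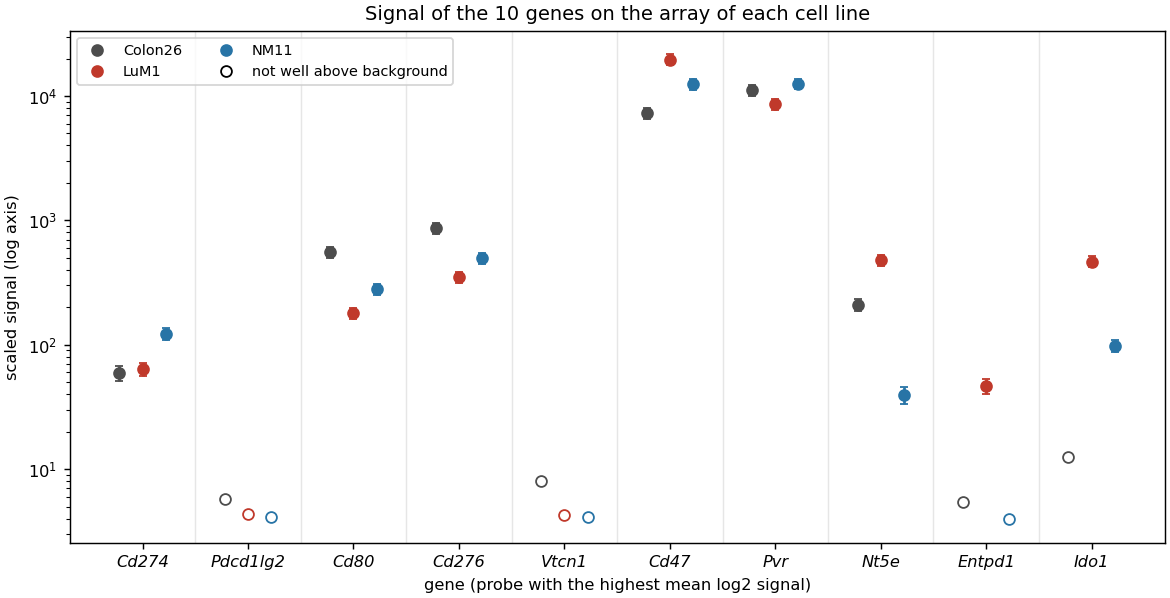
Scaled signal (log axis) of each gene's main probe on the 3 arrays, by cell line. Bars are the scanner software's error and open circles are probes not well above background, whose height is not a level. *Cd80* and *Cd276* were highest in Colon26 cells, *Cd274* in NM11 cells, and *Cd47*, *Nt5e* and *Ido1* in LuM1 cells.

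Among the B7-family ligands, *Cd80* and *Cd276* had their lowest signals in LuM1 cells and *Cd274* was higher in NM11 cells than in either other line. The *Cd274* probe A_51_P248666 (NM_021893) gave 59.1 ± 8.07 in Colon26, 63.4 ± 7.62 in LuM1 and 122 ± 12.9 in NM11 cells. NM11 thus stood apart from a pair of lines that lay within their error. The NM11 signal was 2.07-fold that of Colon26 (log2 ratio 1.05, scanner error 0.25), and the LuM1 signal was 0.518-fold that of NM11 (log2 ratio -0.95, scanner error 0.23). Scaling to *Hprt*, which adds 0.59 to every log2 ratio of LuM1 over NM11, gave -0.36 for the latter. LuM1 and Colon26 differed by a log2 ratio of 0.10, less than its error of 0.26, and the sign of this ratio turned to -0.10 with quantile normalization. The neighbouring *Pdcd1lg2*, read by A_55_P2187141 (NM_021396), gave 5.79 in Colon26, 4.37 in LuM1 and 4.14 in NM11 cells. None of these was significantly above background, so *Pdcd1lg2* RNA was not detectable at this sensitivity.

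The *Cd276* gene encodes B7-H3, a ligand that is widely found on solid tumours. Its probe A_55_P2716641 (NM_133983) gave 862 ± 86.5 in Colon26, 351 ± 35.5 in LuM1 and 494 ± 49.6 in NM11 cells. The order ran from Colon26 to NM11 to LuM1, with each neighbouring pair apart by more than 2 scanner errors. LuM1 was 2.45-fold lower than Colon26 (log2 ratio -1.30, scanner error 0.21), and 1.40-fold lower than NM11 (log2 ratio -0.49, scanner error 0.21). The first of these ratios was -0.85, under 2-fold, in the authors' processed values, and the second turned to 0.10 when arrays were scaled to *Hprt*. The *Vtcn1* gene encodes B7-H4, another inhibitory ligand, and its probe A_52_P278327 (NM_178594) gave 7.99, 4.28 and 4.09 in Colon26, LuM1 and NM11 cells. None was well above background, although the Colon26 signal passed the looser flag for significance.

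*Cd80* was read by 3 probes of the same transcript, NM_009855, and all were brightest in Colon26 cells and dimmest in LuM1 cells. The main probe A_55_P2001218 gave 552 ± 55.5 in Colon26, 180 ± 18.6 in LuM1 and 279 ± 28.3 in NM11 cells. By this probe LuM1 was 3.07-fold lower than Colon26 (log2 ratio -1.62, scanner error 0.21) and 1.55-fold lower than NM11 (log2 ratio -0.63, scanner error 0.21). The latter ratio was -0.045, within its error, with *Hprt* scaling. Probe A_66_P130432 gave 233 in Colon26 and 96.8 in NM11 cells, but its signal of 4.56 in LuM1 cells was not well above background. Probe A_52_P244005 behaved in the same way, with 151 in Colon26, 67.1 in NM11 and 4.98, again not well above background, in LuM1 cells. For a signal that is not well above background a ratio was given only as a bound, against the lowest signal that was well above background on that array. By these bounds LuM1 was at least 11.6-fold lower than Colon26 with A_66_P130432 and at least 7.49-fold lower with A_52_P244005. Against NM11, LuM1 was at least 4.81-fold and at least 3.34-fold lower with the same probes. The 3 probes therefore shared the order of the lines and differed in the size of the gap.

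**Figure D2:**
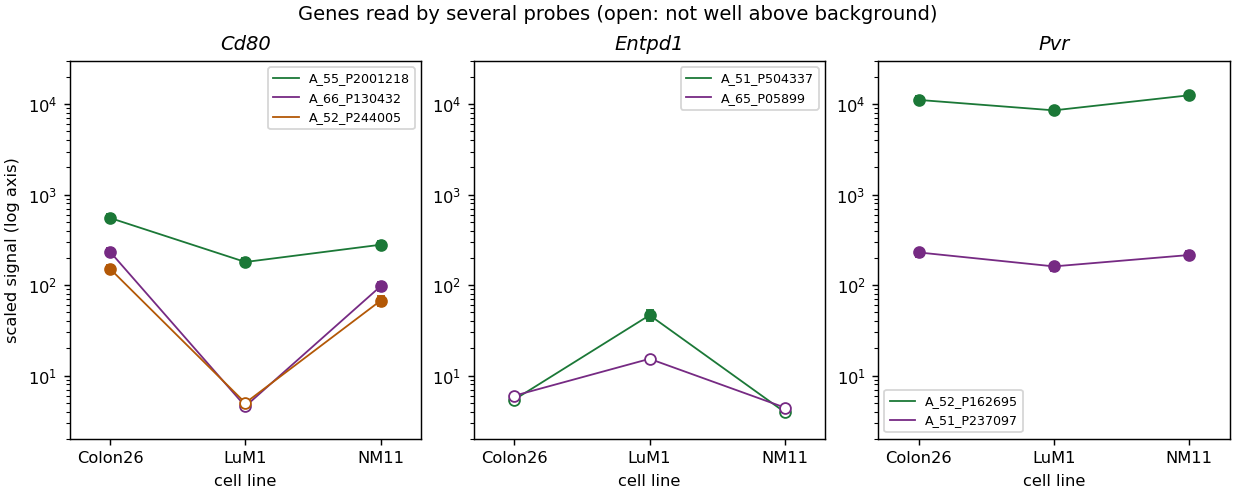
Scaled signal (log axis) of every probe of *Cd80*, *Entpd1* and *Pvr* by cell line, with the scanner software's error as bars and open circles where a signal was not well above background. For *Cd80*, 1 probe gave 180 in LuM1 cells while the other 2 gave 4.56 and 4.98, and for *Pvr* both probes were lowest in LuM1 cells.

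*Cd47* had the highest signal in LuM1 cells and *Pvr* varied least of the genes measured on all arrays. The *Cd47* probe A_51_P221014 (NM_010581) gave 7248 ± 725 in Colon26, 19599 ± 1960 in LuM1 and 12435 ± 1244 in NM11 cells. The 3 signals were each apart from the next by more than 2 scanner errors. LuM1 was 2.70-fold higher than Colon26 (log2 ratio 1.44), LuM1 was 1.58-fold higher than NM11 (log2 ratio 0.66) and NM11 was 1.72-fold higher than Colon26 (log2 ratio 0.78), each with a scanner error of 0.20. All 3 ratios kept their sign under the 8 other scalings and background corrections, and the range of the first was 1.42 to 1.88. *Hprt* scaling moved the second to 1.25.

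*Pvr* encodes CD155, a ligand of the activating receptor DNAM-1 and the inhibitory receptor TIGIT. Its main probe A_52_P162695 (NM_027514) gave 11161 ± 1116 in Colon26, 8555 ± 856 in LuM1 and 12555 ± 1256 in NM11 cells. Its second probe, A_51_P237097, gave 230, 161 and 215 in the same order. By both probes LuM1 was lowest, but the lines did not separate clearly. With the main probe, the gap of LuM1 to NM11 (log2 ratio -0.55) exceeded 2 scanner errors and the gap to Colon26 (log2 ratio -0.38) did not, whereas with the second probe the gap to Colon26 (log2 ratio -0.51) did and that to NM11 (log2 ratio -0.42) did not. The main probe's ratio turned to 0.06 over Colon26 in the authors' processed values and to 0.04 over NM11 with *Hprt* scaling.

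The ectonucleotidases were both highest in LuM1 cells, and *Nt5e* had the widest range of the genes measured on all arrays. Its probe A_52_P574668 (NM_011851) gave 209 ± 22.7 in Colon26, 476 ± 47.9 in LuM1 and 39.5 ± 6.10 in NM11 cells. LuM1 lay above the parental line and NM11 below it, so the sublines departed from Colon26 in opposite directions. LuM1 was 2.28-fold higher than Colon26 (log2 ratio 1.19, scanner error 0.21) and 12.0-fold higher than NM11 (log2 ratio 3.59, scanner error 0.27), and NM11 was 5.28-fold lower than Colon26 (log2 ratio -2.40, scanner error 0.27). The directions and the 2-fold difference held in all 8 other scalings and background corrections, but the size did not, since normexp background correction, which damps dim signals, gave 4.44-fold for LuM1 over NM11, against 18.1-fold with *Hprt* scaling, and a log2 ratio of -1.02 for NM11 over Colon26. Of the genes measured in the pair, 0.661% had a ratio of LuM1 over NM11 at least as high and 0.698% a ratio of NM11 over Colon26 at least as low.

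*Entpd1* was read by 2 probes of different transcripts. The main probe A_51_P504337 (NM_009848) gave 46.5 ± 6.21 in LuM1 cells, against 5.42 in Colon26 and 3.93 in NM11 cells, which were not well above background. LuM1 was at least 1.76-fold higher than Colon26 and at least 2.38-fold higher than NM11. The LuM1 signal is dim, and the second bound, a log2 ratio of 1.25, was 0.58 with normexp correction. Probe A_65_P05899 (NM_001304721) gave 5.98, 15.3 and 4.42 in Colon26, LuM1 and NM11 cells, none of them well above background, with the LuM1 signal alone passing the looser flag.

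*Ido1* had the highest bound of the 10 genes over Colon26. Its probe A_51_P307150 (NM_008324) gave 467 ± 46.9 in LuM1, 98.5 ± 10.6 in NM11 and 12.5 ± 5.56 in Colon26 cells, the last not well above background. LuM1 was at least 17.7-fold higher than Colon26, LuM1 was 4.74-fold higher than NM11 (log2 ratio 2.24, scanner error 0.21) and NM11 was at least 3.73-fold higher than Colon26. The 3 lines thus fell in the order LuM1, NM11, Colon26. With normexp correction the values were 6.86-fold, 3.07-fold and 2.24-fold, the second was 7.13-fold with *Hprt* scaling, and all stayed past 2-fold in the 8 other scalings and background corrections. Of 12397 genes well above background in both LuM1 and Colon26 cells, 0.758% had a ratio at least as high as the bound of log2 4.14. That share leaves out *Ido1* and every other gene with only a bound, among them *Dcn* and *Thy1*, whose bounds were higher. Of the leukocyte markers given above, *Cd68*, *Cd14* and *Lyz2* had the same highest line as *Ido1*, *Csf1r* was level, and *Ptprc*, *Adgre1* and *Itgax* were not well above background on any array. Of the fibroblast markers, *Dcn*, *Thy1* and *Pdgfra* fell in the same order of lines, and the other measured ones did not.

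Counts of genes past a 2-fold difference, a rule of size and not a test, were read against all genes well above background on at least 1 array of the pair. LuM1 was at least 2-fold higher than Colon26 for *Cd47*, *Ido1* and *Nt5e*, 3 of the 8 genes that could be compared, where 12.9% of 14353 named genes were. It was at least 2-fold lower for *Cd276* and *Cd80*, 2 of the 8, where 11.7% of all were. LuM1 was at least 2-fold higher than NM11 for *Entpd1*, *Ido1* and *Nt5e*, 3 of 8, beside 11.1% of 14415 genes, and at least 2-fold lower for 0 of 8, beside 8.5%. NM11 was at least 2-fold higher than Colon26 for *Cd274* and *Ido1*, 2 of 7, beside 8.17% of 14109 genes, and at least 2-fold lower for *Nt5e*, 1 of 7, beside 7.74%. These counts used each gene's main probe. By the other probes of *Cd80*, LuM1 was over 2-fold lower than NM11, and NM11 over 2-fold lower than Colon26. *Cd274* lay at the threshold and passed it in 4 of the 8 other scalings and background corrections. *Entpd1*, well above background in LuM1 cells alone, could be called only as higher there. Its call over NM11 rests on a bound, which passed 2-fold in 6 of the 8. *Nt5e* and *Ido1* were higher by at least 2-fold in LuM1 cells against each of the other lines, as were 7.33% of 14828 named genes. With so few genes, these shares do not set the 10 apart from the rest of the array.

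The median log2 ratio of the measured members was -0.14 for LuM1 over Colon26 (6 genes), -0.49 for LuM1 over NM11 (7 genes) and -0.32 for NM11 over Colon26 (6 genes), beside medians over all measured genes of -0.13, -0.11 and -0.02. The 3 comparisons share arrays, so that each measured ratio follows from the other two. By role, the B7-family ligands measured were lower in LuM1 than in Colon26 or within error, and *Cd47*, both ectonucleotidases and *Ido1* were higher.

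**Figure D3:**
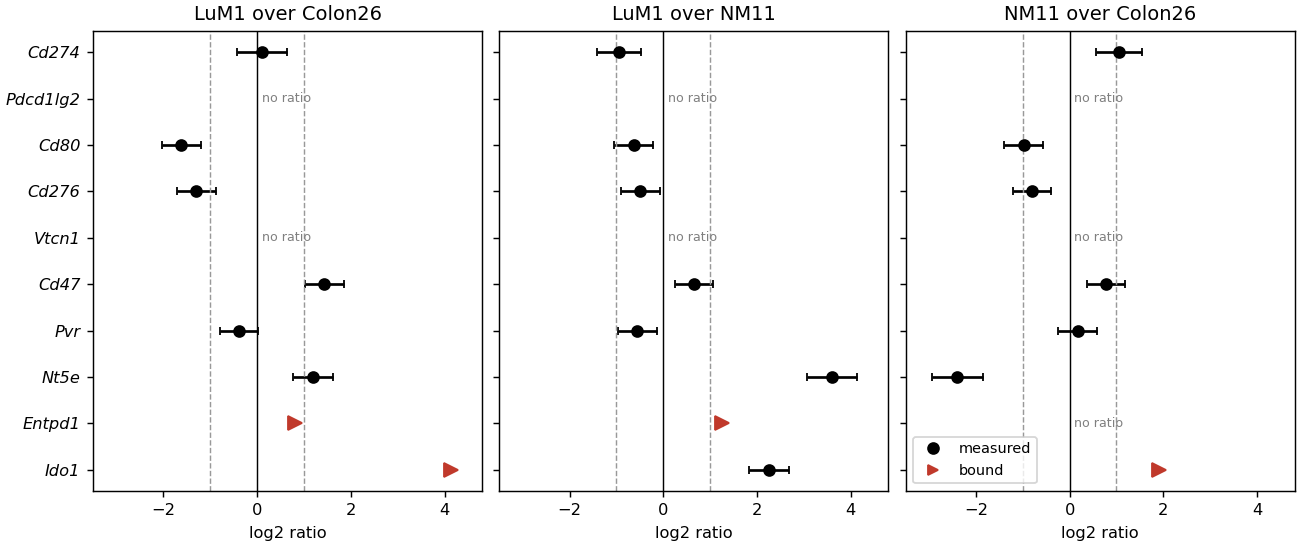
Log2 ratio of each gene's main probe in the 3 comparisons. Circles are measured ratios with bars of 2 scanner errors, triangles are bounds pointing towards larger ratios, and dashed lines mark 2-fold. *Nt5e* ran from 3.59 for LuM1 over NM11 to -2.40 for NM11 over Colon26, and *Pvr* stayed inside 2-fold throughout.

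**Figure D4:**
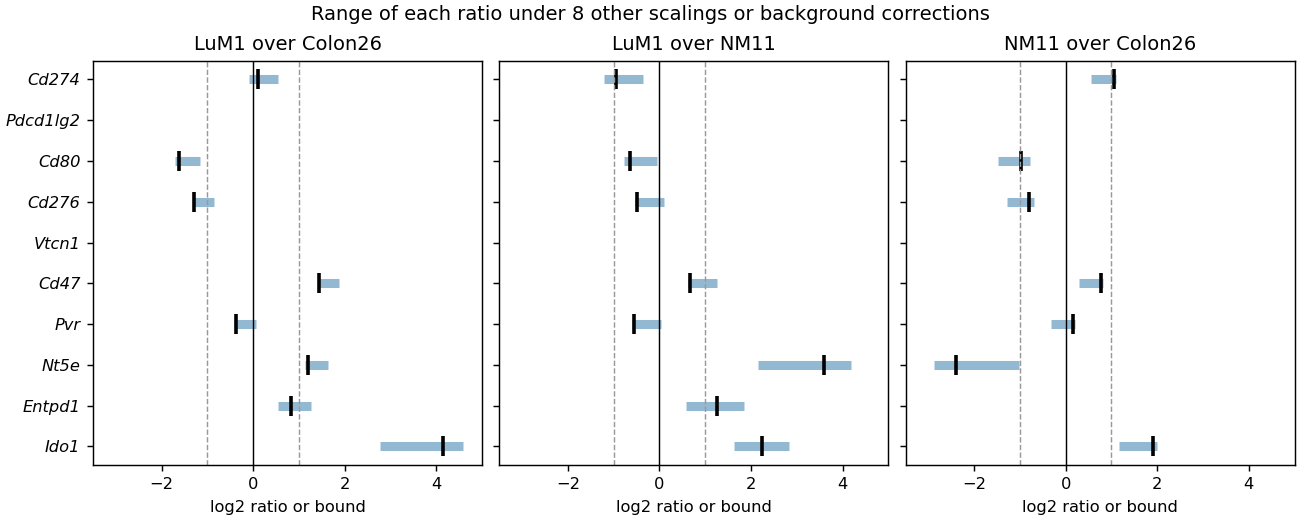
Range of each log2 ratio or bound (bar) over 8 other scalings or background corrections, with the reported value as a black tick and 2-fold as dashed lines. The bars of *Cd47*, *Cd80*, *Nt5e* and *Ido1* for LuM1 over Colon26 lay wholly past 2-fold, whereas that of *Cd274* ran from -0.10 to 0.55 and crossed 0.

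Further genes of the same pathways were taken from lists, and their counts stand beside the shares over all named genes. Of 23 other checkpoint and costimulatory ligands, 9, 9 and 10 were well above background in Colon26, LuM1 and NM11 cells, where 56.9%, 59.9% and 59.1% of all genes were, and 13 were not well above background on any array, including *Cd86*, the partner of *Cd80* in binding CD28. Of the 9 that could be compared, 3 gave LuM1 signals at least 2-fold above Colon26 and 0 gave lower ones by that size, beside 12.9% and 11.7% of all genes. Their median log2 ratio was 0.45, beside -0.13 over all genes. *Nectin2*, which encodes another ligand of DNAM-1, gave 193 in Colon26, 2599 in LuM1 and 3199 in NM11 cells, so both sublines lay far above the parental line. *Vsir*, which encodes the checkpoint protein VISTA, gave 32.8, 182 and 50.2 in the same order and was 5.53-fold higher in LuM1 cells than in Colon26. *Ceacam1*, a ligand of TIM-3, gave 108, 237 and 32.6, with its highest signal in LuM1 and its lowest in NM11 cells.

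Receptors of these ligands are mostly known from lymphocytes and myeloid cells. Of 16 listed, 5, 7 and 5 were well above background in Colon26, LuM1 and NM11 cells and 8 on no array, among them *Pdcd1* and *Ctla4*. Of 7 that could be compared, 4 were at least 2-fold higher and 1 was at least 2-fold lower in LuM1 cells than in Colon26, beside 12.9% and 11.7% of all genes, with a median measured log2 ratio of 0.12 beside -0.13. *Tnfrsf9*, which encodes the costimulatory receptor 4-1BB, gave 689 in Colon26, 4754 in LuM1 and 3513 in NM11 cells. *Tigit* gave 142 in Colon26 and 27.0 in LuM1 cells, a 5.27-fold lower signal, and was not well above background in NM11 cells. *Cd28* and *Havcr2* were well above background in LuM1 cells alone, with signals of 101 and 64.3.

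The interferon-gamma list held 19 genes of the signalling chain or with a known part in *Cd274* control, all well above background in Colon26 and LuM1 cells. Between LuM1 and Colon26, 9 were at least 2-fold higher, 1 was lower and 9 lay between, with a median log2 ratio of 0.64, beside 12.9% higher, 11.7% lower and a median of -0.13 over all genes. Between NM11 and Colon26, 7 were higher, 1 was lower and 11 lay between, with a median of 0.59, beside 8.17% higher, 7.74% lower and a median of -0.02 over all genes. The transcription factor gene *Stat3* gave 1337 in Colon26, 7224 in LuM1 and 8355 in NM11 cells. It was thus higher in both sublines, whereas *Cd274* was higher in NM11 cells only. *Jak2*, a kinase of the interferon-gamma receptor, gave 557, 2333 and 1285 in the same order, and *Socs3*, a feedback inhibitor of cytokine signalling, gave 2583, 12770 and 8941. *Irf8*, a transcription factor best known in myeloid cells, gave 59.0 in Colon26 and 1575 in LuM1 cells and was not well above background in NM11 cells. *Irf1*, named after its values were seen because it is a direct activator of *Cd274*, gave 2323 in Colon26, 4751 in LuM1 and 9223 in NM11 cells. It was 2.05-fold higher in LuM1 cells than in Colon26, where *Cd274* lay within error. For LuM1 over NM11 the log2 ratio was -0.96 for *Irf1* and -0.95 for *Cd274*. *Stat2* and *Myc* of the same list, also named after their values were seen, each gave -0.97, so such a ratio was not particular to *Irf1*. Of the 19 listed genes, 2 were at least 2-fold higher and 1 lower in LuM1 than in NM11 cells, with a median measured log2 ratio of -0.18. Over all genes these shares were 11.1% and 8.5%, and the median was -0.11. A link of these genes to *Cd274* was not tested.

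All 10 genes listed as *Cd47* partners and uptake signals could be compared between LuM1 and Colon26, and 2 were at least 2-fold higher and 3 lower, beside 12.9% and 11.7% of all genes. Their median measured log2 ratio was -0.28, beside -0.13. *Sirpa*, which encodes the receptor of CD47, gave 32.5 in Colon26, 1131 in LuM1 and 386 in NM11 cells. *Thbs1*, which encodes thrombospondin-1, a secreted ligand of CD47, gave 4005 in Colon26, 45.6 in LuM1 and 5358 in NM11 cells and was 87.9-fold lower in LuM1 cells than in Colon26. *Thbs2*, its paralogue, gave 3176, 256 and 6687 and was 12.4-fold lower in LuM1. Both thrombospondins were therefore far lower in the line with the highest *Cd47*. *Itgb3*, the beta subunit of the integrin αvβ3 that associates with CD47, gave 6625 in LuM1 cells, at least 251-fold above Colon26, and was not well above background in the other lines. *Fadd*, an adaptor of death receptors, was 2.13-fold lower in LuM1 cells than in Colon26.

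The adenosine list held 29 genes besides *Nt5e* and *Entpd1*, of which 13, 16 and 17 were well above background in Colon26, LuM1 and NM11 cells and 10 on no array. Of 17 that could be compared between LuM1 and Colon26, 8 were at least 2-fold higher and 3 lower, beside 12.9% and 11.7% of all genes, with a median measured log2 ratio of 0.23 beside -0.13. *Entpd2*, which encodes an ectonucleotidase with a preference for ATP, gave 2519 in LuM1 and 69.4 in NM11 cells and was not well above background in Colon26 cells, a difference of LuM1 over Colon26 of at least 95.4-fold. *Panx1*, which encodes a channel that releases ATP, gave 141 in Colon26, 2856 in LuM1 and 1908 in NM11 cells. *Cd38* and *Bst1* encode enzymes that consume extracellular NAD. *Cd38* gave 35.2 in Colon26, 592 in LuM1 and 33.4 in NM11 cells, and *Bst1* gave 4671 in LuM1 and 126 in NM11 cells and was not well above background in Colon26 cells. *Slc29a2*, a nucleoside transporter, was 3.28-fold lower in LuM1 cells than in Colon26. Of the adenosine receptors, *Adora2b* alone was well above background, with 123 in Colon26, 99.4 in LuM1 and 210 in NM11 cells. It was named after its values were seen.

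Of 14 further genes of tryptophan and kynurenine metabolism, 11 could be compared between LuM1 and Colon26, and 0 were at least 2-fold higher and 1 was lower, beside 12.9% and 11.7% of all genes. The 11 include *Tdo2*, whose bound fell under 1, so that it had no ratio. *Wars*, which encodes the tRNA synthetase for tryptophan, gave 28458 in Colon26, 10043 in LuM1 and 16203 in NM11 cells and was 2.83-fold lower in LuM1 cells than in Colon26. No listed enzyme of the kynurenine route thus passed 2-fold between these lines as *Ido1* did, and *Kynu*, which encodes kynureninase, was not well above background on any array.

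**Figure D5:**
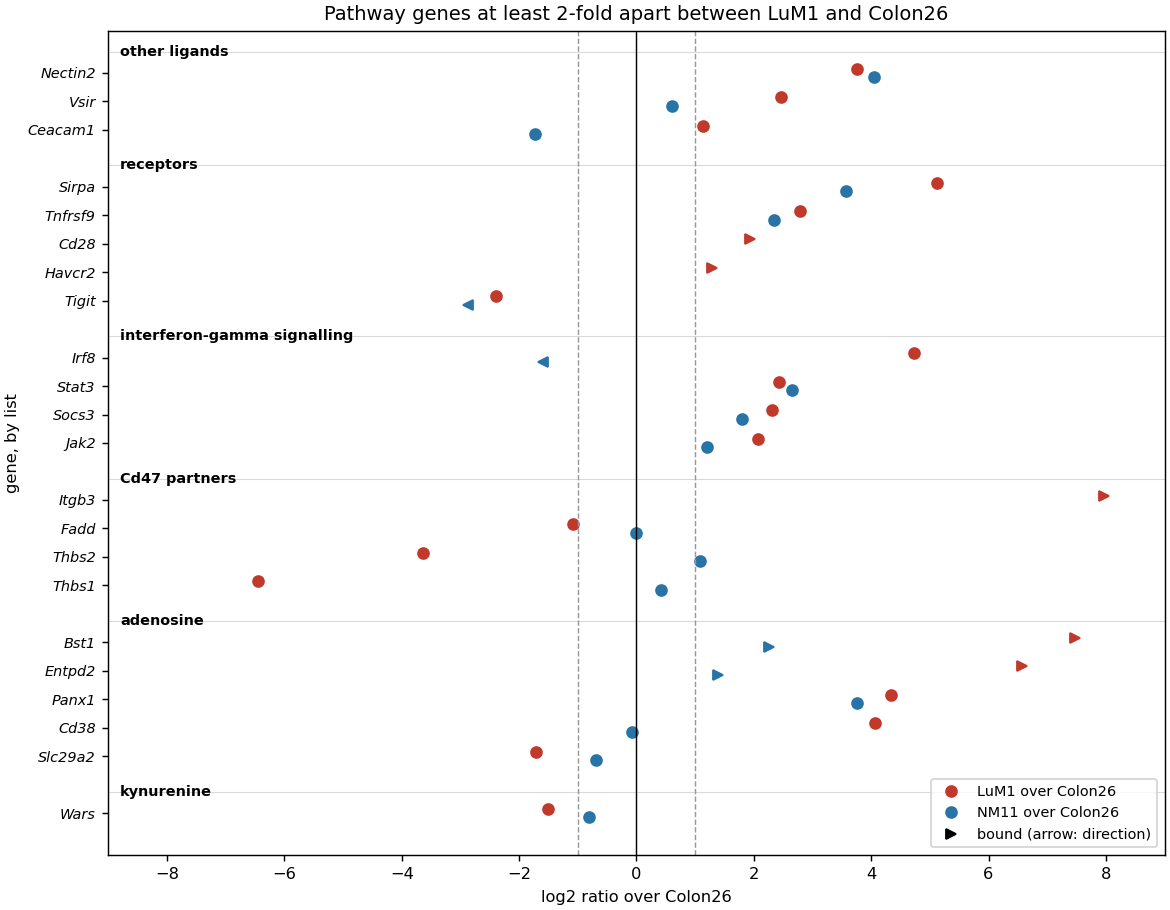
Log2 ratio over Colon26 of the listed genes that were at least 2-fold apart between LuM1 and Colon26 (up to 5 with the largest ratios for each list), in LuM1 and NM11 cells. Circles are measured, triangles are bounds, dashed lines mark 2-fold, and *Sirpa*, a member of 2 lists, is drawn once. *Nectin2*, *Stat3* and *Panx1* were higher in both sublines, whereas *Thbs1* and *Thbs2* were lower in LuM1 cells alone.

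Among 12249 named genes measured on all arrays, the pattern most like that of *Nt5e* was sought as the smallest Euclidean distance in the log2 ratios of LuM1 and of NM11 over Colon26, over the 3 lines. *Slc22a18*, a membrane transporter gene, was nearest at a distance of 0.46, with ratios of 0.97 and -1.99. *C2*, which encodes a complement component, followed with 1.63 and -2.54, and *Sema3f*, which encodes a secreted semaphorin, with 1.66 and -2.32, both at a distance of 0.47. With 3 arrays such a likeness describes these samples and no more.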

How the data were processed

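Gene expression was measured in Colon26, LuM1 and NM11 cells with 1 single-colour array per line, all on 1 slide. RNA (0.1 µg) was labelled with Cy3. The authors deposited flags of 0 or 1 (a score per spot) for outliers, saturation and signal above background. The signal used here is the deposited processed signal of each spot from Agilent Feature Extraction 11.5.1.1, not scaled between arrays. The authors' own processed intensity for the series is the same signal multiplied by a constant, namely 0.654 (Colon26), 0.829 (LuM1) or 0.706 (NM11).

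Control and outlier spots were left out and spots of 1 probe averaged, giving 56599 probes, of which 32989 (58.3%) were named through RefSeq accessions of GRCm38.p6. Probe coordinates are not given, since the design used an earlier build. Signals were divided by the 75th percentile of their array (581.1, 625.1 and 551.5 as deposited for Colon26, LuM1 and NM11), and ratios were taken as log2. Where a probe was not well above background on 1 array of a pair, the ratio was a bound against its own signal or the lowest signal well above background on that array (26.4, 20.1 and 19.6), whichever was higher. No ratio was given where both were below background or the bound fell under 1. Genes whose bound fell under 1 still counted among those compared, as not past 2-fold. A gene was represented by its probe with the highest mean log2 signal. Scanner errors cover the spot only and not the culture, extraction or labelling.

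The 10 genes and the pathway and marker lists were chosen with earlier results of these data known. Beyond the 10, the genes named are, for each list, up to 5 with the largest ratio of LuM1 to Colon26 past 2-fold, and the 3 genes most like the member of widest range, and any other was named after its values were seen. For 1 gene that this rule takes, the values are not reported here. Alternatives changed the scaling, the background correction (normexp, offset 50, limma 3.58.1 in R 4.3.3), the values used, the detection flag, the probe and the threshold. The scripts ran in Python 3.11.15 with pandas 2.3.3 and were checked on simulated data.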

Additional observations from a re-analysis of the deposited data

How the results depend on the processing

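Detection gave 6, 8 and 7 of the 10 genes in Colon26, LuM1 and NM11 cells with normexp correction, in the authors' values and with either other choice of probe, and 8, 8 and 7 with the looser flag. All of these but the looser flag keep each probe's deposited flag. Their unchanged counts are therefore no check of detection. Of the recomputed counts, 79 stayed within 1.5 times of the reported one and 14 did not, and no ratio that was past 2-fold changed sign. Several scalings only add a constant to every log2 ratio of a pair, at most 0.59. Under those, a ratio past 2-fold could not change sign. For NM11 at least 2-fold higher than Colon26 the count was 1 (*Ido1*) rather than 2 without scaling, with *Hprt* scaling, with scaling to E1A spike-in probes, and with normexp correction. For NM11 at least 2-fold lower than Colon26 it was 2 (*Cd80* and *Nt5e*) rather than 1 without scaling and with the mean over probes, and 3 (with *Cd276* too) with *Hprt* or spike-in scaling. For LuM1 at least 2-fold lower than NM11 it was 1 rather than 0 with quantile normalization (*Cd274*) and with the mean over probes (*Cd80*). For LuM1 at least 2-fold lower than Colon26 it was 1 (*Cd80*) rather than 2 in the authors' processed values. At a 4-fold threshold LuM1 was higher than Colon26 for 1 gene (*Ido1*) and lower for 0, and NM11 was higher than Colon26 for 0. A stricter threshold removes genes by construction, and the cause of the other shifts was not tested. The median log2 ratio of the probes well above background on all 3 arrays moved with the scaling. In the authors' values it moved by 0.45 for LuM1 over Colon26 and 0.41 for LuM1 over NM11. With *Hprt* it moved by 0.59 for LuM1 over NM11 and -0.49 for NM11 over Colon26, and with the spike-ins by 0.33 and -0.34. Without scaling it moved by 0.11 for LuM1 over Colon26 and 0.18 for LuM1 over NM11. Taking the percentile over distinct probes, an alternative chosen after seeing the data, moved no count by over 1.5 times. The normexp correction used the median spot brightness. No paired analysis was possible because each line has 1 array. Signal over background limits *Entpd1*, *Ido1* in Colon26 cells, *Pdcd1lg2* and *Vtcn1*.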
